A study of Homo sapiens with 18 samples.

Results

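The genes described here are 10 transcription factor genes of the immediate-early response: EGR1, EGR3, FOS, FOSB, FOSL1, FOSL2, JUN, JUNB, JUND and ATF3. They were taken by symbol from a table of read counts for 60642 genes, and all 10 were in it. Immediate-early genes are switched on within minutes of a growth factor, stress or cytokine signal, from factors already present in the cell. The ERK kinases act largely through serum response factor (SRF) and its partners of the ELK family, which bind CArG boxes in promoters such as that of EGR1, and the JNK and p38 kinases act through JUN and ATF proteins. FOS and JUN family proteins pair to form AP-1, which binds the sequence TGANTCA. TGF-β, the ligand whose receptor was targeted here, is known to raise JUNB through SMAD proteins, and AP-1 takes part in the epithelial-mesenchymal transition (EMT).

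RNA was sequenced in 18 libraries, 3 for each of 6 groups, from 2 established colorectal cancer lines. HT-29 iZEB1 is the HT-29 line carrying a doxycycline (DOX) inducible gene for ZEB1, a transcriptional repressor of epithelial genes. Its 12 libraries came from cells given the vehicle DMSO, RepSox, DOX with DMSO, or DOX with RepSox. SW620, a line from a lymph node metastasis, gave 3 libraries with DMSO and 3 with RepSox, and had neither the inducible gene nor DOX. RepSox blocks ALK5, the type I TGF-β receptor. Cells had 10 µM of it for 24 h. The inducer was used at 1 µg per ml, with a time of 24 h in the treatment protocol and of 48 h in the series' design text. HT-29 without the inducible gene was not analysed here, so that DOX itself and ZEB1 cannot be told apart, and no source used here gives the promoter driving ZEB1 or the number of clones. The labels do not say whether replicates were separate cultures, so that every p-value measures only the spread between these libraries.

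The promoters of 3 genes are shown because EGR1, JUNB and JUND were lower with RepSox in both lines, and because the only matches to the motifs searched lay in EGR1 and JUND. Each is the 250 bases before the RefSeq start (GRCh38.p14), 5′ to 3′ on the gene's strand, with matches in capitals. EGR1 is at chr5:138465229-138465478 on the plus strand and its capitals are 2 CArG boxes, which start 105 and 83 bases before the start of the gene. JUND is at chr19:18281623-18281872 on the minus strand and its capitals are a cAMP response element (CRE, TGACGTCA), a site of ATF, CREB and JUN proteins, 200 bases before the start. JUNB is at chr19:12791236-12791485 on the plus strand and has no capitals.
EGR1: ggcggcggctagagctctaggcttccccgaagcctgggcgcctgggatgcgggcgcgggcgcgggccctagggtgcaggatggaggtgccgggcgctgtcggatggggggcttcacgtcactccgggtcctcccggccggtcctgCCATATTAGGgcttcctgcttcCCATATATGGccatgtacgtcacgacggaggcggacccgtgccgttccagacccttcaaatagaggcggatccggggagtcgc
JUNB: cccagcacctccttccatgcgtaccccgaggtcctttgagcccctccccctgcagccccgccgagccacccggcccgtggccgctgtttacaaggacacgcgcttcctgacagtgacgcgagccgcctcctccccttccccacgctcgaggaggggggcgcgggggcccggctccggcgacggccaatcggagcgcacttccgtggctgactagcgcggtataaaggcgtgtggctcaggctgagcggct
JUND: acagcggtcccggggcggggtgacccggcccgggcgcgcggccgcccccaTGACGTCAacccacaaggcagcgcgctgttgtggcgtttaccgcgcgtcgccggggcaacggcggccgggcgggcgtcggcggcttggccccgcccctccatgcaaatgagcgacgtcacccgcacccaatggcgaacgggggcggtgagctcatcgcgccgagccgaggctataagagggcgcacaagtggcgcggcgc

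Promoters of 8 of the 10 genes were matched by symbol, in 9 windows since ATF3 has 2 starts, and EGR3 and FOSL1 had no entry. These motifs were searched on both strands: the AP-1 site TGANTCA, the CRE TGACGTCA, the CArG box, the EGR1 site GCGTGGGCG or GCGGGGGCG, the SMAD site GTCTAGAC and the ZEB1 E-box CAGGTA or CAGGTG. Of 34943 RefSeq promoters of the same length, 1.16% held a CArG box and 1.63% the CRE. The AP-1 site was in 6.59%, the EGR1 site in 5.35%, the SMAD site in 0.183% and the E-box in 23.9% of them, and in none of the 9 windows. These are matches of letters in a short window.

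In GENCODE 29 (GRCh38) EGR1 lies at chr5:138465490-138469315 and EGR3 at chr8:22687659-22693302. FOS lies at chr14:75278774-75282230, FOSB at chr19:45467995-45475179, FOSL1 at chr11:65892049-65900573 and FOSL2 at chr2:28392448-28417312. JUN lies at chr1:58780788-58784327, JUNB at chr19:12791496-12793315, JUND at chr19:18279760-18281622 and ATF3 at chr1:212565334-212620777. FOSB overlaps ERCC1 and JUNB overlaps HOOK2, each on the other strand, and EGR3 and FOSL2 overlap noncoding transcripts. No source used here gives the strand setting of the counting, so that reads of these 4 genes and of their neighbours cannot be told apart.

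Libraries held 36.5 to 39.8 M counts, and the counts of replicates were more spread than counting error gives. Replicate 2 of DOX and DMSO stood apart from its replicates (chi-square per degree of freedom of 32.6 and 42.6, against 8.95 between the others), as did replicate 1 of DOX and RepSox (16.1 and 24.1, against 7). The tests described below were repeated without each. Without the first, 6 of 9 members were called for DOX in DMSO, against 7055 of all genes. For RepSox with DOX 8 of 9 were called, against 8709 genes, and for the interaction 3 of 9, against 4114. Without the second, 2 of 9 were called for DOX in RepSox, against 1670 genes. For RepSox with DOX 7 of 9 were called, against 8730 genes, and for the interaction 3 of 9, against 4393. Without replicate 1 of RepSox alone, 0 of 9 were called for DOX in RepSox, against 36 genes. For RepSox without DOX, leaving out 1 library of the groups compared gave 4 to 5 of 9, against 3207 to 3591 genes (4290 with all libraries). With all libraries, 6853 of 16978 genes were called for DOX in DMSO and 81 for DOX in RepSox. Those for RepSox with DOX were 8864 and for the interaction 3834. Levels are given as CPM, counts per 1 M counts of the TMM-scaled library, and CPM per kb of exon is used to compare genes. ZEB1 was at 7.90, 7.38 and 10.4 CPM in HT-29 iZEB1 with DMSO and at 372, 385 and 376 CPM with DOX and DMSO, but at 14.6, 15.9 and 17.4 CPM with DOX and RepSox. The DOX and RepSox libraries therefore differ from the DOX and DMSO ones in ZEB1 as well as in the inhibitor. The 11 colon epithelium markers summed to 4772 to 11350 CPM, led by KRT8, and the sum was lowest with DOX and DMSO (4772 to 5266 CPM). There 8 of the 11 were called lower than with DMSO, as were 21.1% of all genes, while CDH17 rose 6.4-fold. KRT20 (102 CPM) lay above both RepSox groups of the line (65.6 and 74.4 CPM). Of these, CDX1 was at 0 in SW620 and KRT20, CDH17 and LGALS4 reached at most 0.308 CPM there. The 8 fibroblast markers summed to at most 1.47 CPM in HT-29 iZEB1 and to 7.28 to 13.3 CPM in SW620 (mostly LUM), with COL1A2 and PDGFRA at 0 in every library. The 8 leukocyte markers summed to 5.21 to 8.74 CPM in HT-29 iZEB1 (mostly CD14) and at most 0.976 CPM in SW620, with PTPRC at most 0.245 CPM and MS4A1 at 0. The 6 endothelial markers summed to 2.40 to 11.5 CPM (mostly TEK in HT-29 iZEB1), with CDH5 at most 0.104 CPM. The share of mitochondrially encoded counts was 2.51% to 4.16% with RepSox alone against 4.31% to 5.30% with DMSO in HT-29 iZEB1, and overlapped between the compared groups with DOX and in SW620. The part of these differences in the results was not tested. In bulk RNA, fewer cells that express a gene and less of its RNA per cell cannot be told apart.

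EGR1, a zinc-finger activator induced by ERK and other signals, was the tested member with the largest change by RepSox. In HT-29 iZEB1 it stood at 33.2, 34.9 and 33.2 CPM with DMSO and at 8.08, 9.37 and 10.0 CPM with RepSox. With DOX it stood at 20.1, 25.3 and 23.2 CPM in DMSO and at 7.45, 6.97 and 7.50 CPM in RepSox. In SW620 it stood at 68.7, 68.4 and 60.7 CPM with DMSO and at 22.9, 19.4 and 21.0 CPM with RepSox. Every RepSox library was thus below every DMSO library of the same line and induction. The order of the group means ran from SW620 with DMSO (65.9 ± 4.53 CPM, SD, n = 3) to HT-29 iZEB1 with DOX and RepSox (7.30 ± 0.293 CPM). Only 2 neighbours in it overlapped, HT-29 iZEB1 with DOX and DMSO and SW620 with RepSox.

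EGR3, a close relative of EGR1 that is also growth factor induced, was near 0 in HT-29 iZEB1 and expressed in SW620. The 3 libraries of HT-29 iZEB1 held 0 counts in all with DMSO, 8 with RepSox, 2 with DOX and 1 with both. SW620 held 11.2, 11.3 and 10.5 CPM with DMSO and 13.9, 12.7 and 13.2 CPM with RepSox. Against the 3 counts over 3 libraries that a count of 0 allows, EGR3 was at least 389-fold higher in SW620 than in HT-29 iZEB1 with DMSO. It was left out of the HT-29 iZEB1 tests by the filter on low counts.

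JUNB and JUND, AP-1 partners that often act against JUN, were lower with RepSox wherever EGR1 was, but did not share its high level in SW620. JUNB stood at 36.1, 38.5 and 36.5 CPM in HT-29 iZEB1 with DMSO, at 17.3, 16.5 and 17.3 CPM with RepSox, at 23.0, 29.3 and 23.7 CPM with DOX, and at 14.6, 13.1 and 12.3 CPM with both. In SW620 it was at 22.3, 22.1 and 19.0 CPM with DMSO and at 18.7, 17.7 and 17.1 CPM with RepSox. RepSox libraries were below DMSO libraries throughout, by a small margin in SW620. JUND, known for steady expression, stood at 46.5, 47.0 and 37.7 CPM with DMSO, 29.3, 28.5 and 35.2 CPM with RepSox, 37.5, 42.1 and 36.8 CPM with DOX, and 26.7, 26.5 and 23.2 CPM with both. In SW620 it was at 38, 33.3 and 33.5 CPM with DMSO and at 30.3, 25.4 and 25.9 CPM with RepSox. JUND separated RepSox from DMSO in each of the 3 settings, yet neighbouring groups in its order of means overlapped throughout.

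JUN, the main transactivating partner in AP-1, followed another course. It stood at 56.3, 56.6 and 54.2 CPM in HT-29 iZEB1 with DMSO, at 66.0, 68.9 and 69.4 CPM with RepSox, at 83.2, 88 and 82.8 CPM with DOX, and at 63.8, 73.4 and 71.3 CPM with both. SW620 was higher, at 115, 121 and 108 CPM with DMSO and at 161, 156 and 166 CPM with RepSox. RepSox libraries were above DMSO in SW620 and in HT-29 iZEB1 without DOX, and below it with DOX. The 2 RepSox groups of HT-29 iZEB1 overlapped.

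FOS, the most transient member of its family, was at 26.8, 22.0 and 25.7 CPM in HT-29 iZEB1 with DMSO, 27.0, 27.5 and 29.9 CPM with RepSox, 12.4, 14.7 and 14.1 CPM with DOX, and 22.6, 24.5 and 23.8 CPM with both. In SW620 it was at 7.17, 6.50 and 5.68 CPM with DMSO and at 5.08, 4.38 and 3.98 CPM with RepSox, below every HT-29 iZEB1 library. The group with DOX and DMSO was the low one among the 4 of HT-29 iZEB1. FOSL1 encodes FRA-1, which lacks the strong activation domain of FOS and is known from invasive carcinoma cells. It was at 18.2, 18.5 and 17.1 CPM with DMSO, 19.3, 18.9 and 20.4 CPM with RepSox, 10.1, 13.7 and 10.8 CPM with DOX, and 16.9, 17.6 and 15.5 CPM with both. SW620 held far more, 141, 149 and 128 CPM with DMSO and 226, 220 and 234 CPM with RepSox. In HT-29 iZEB1 FOSL1, like FOS, was lowest with DOX and DMSO.

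FOSL2 encodes FRA-2, the second such protein, and was the reverse of FOSL1 between the lines. It was at 94.5, 90.7 and 97.9 CPM with DMSO, 94.1, 94.2 and 92.7 CPM with RepSox, 87.1, 92.9 and 89.5 CPM with DOX, and 80.9, 75.2 and 75.5 CPM with both. In SW620 it was at 27.3, 29.5 and 30.2 CPM with DMSO and 26.2, 28.3 and 26.6 CPM with RepSox, and these groups overlapped. FOSB and ATF3 had group means of 0.767 to 1.68 CPM per kb of exon in HT-29 iZEB1, the lowest of the 9 members tested there. FOSB ran from 3.82 to 5.87 CPM in HT-29 iZEB1 and from 2.90 to 3.62 CPM in SW620, and all groups of a line overlapped. ATF3, a stress-induced factor that can repress as a homodimer, was at 5.55, 4.13 and 5.29 CPM with DMSO, 7.41, 5.41 and 7.56 CPM with RepSox, 3.05, 4.18 and 3.06 CPM with DOX, and 4.12, 5.37 and 3.45 CPM with both. In SW620 ATF3 ran from 2.24 to 3.32 CPM, and neighbouring groups in its order overlapped throughout.

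**Figure D1:**
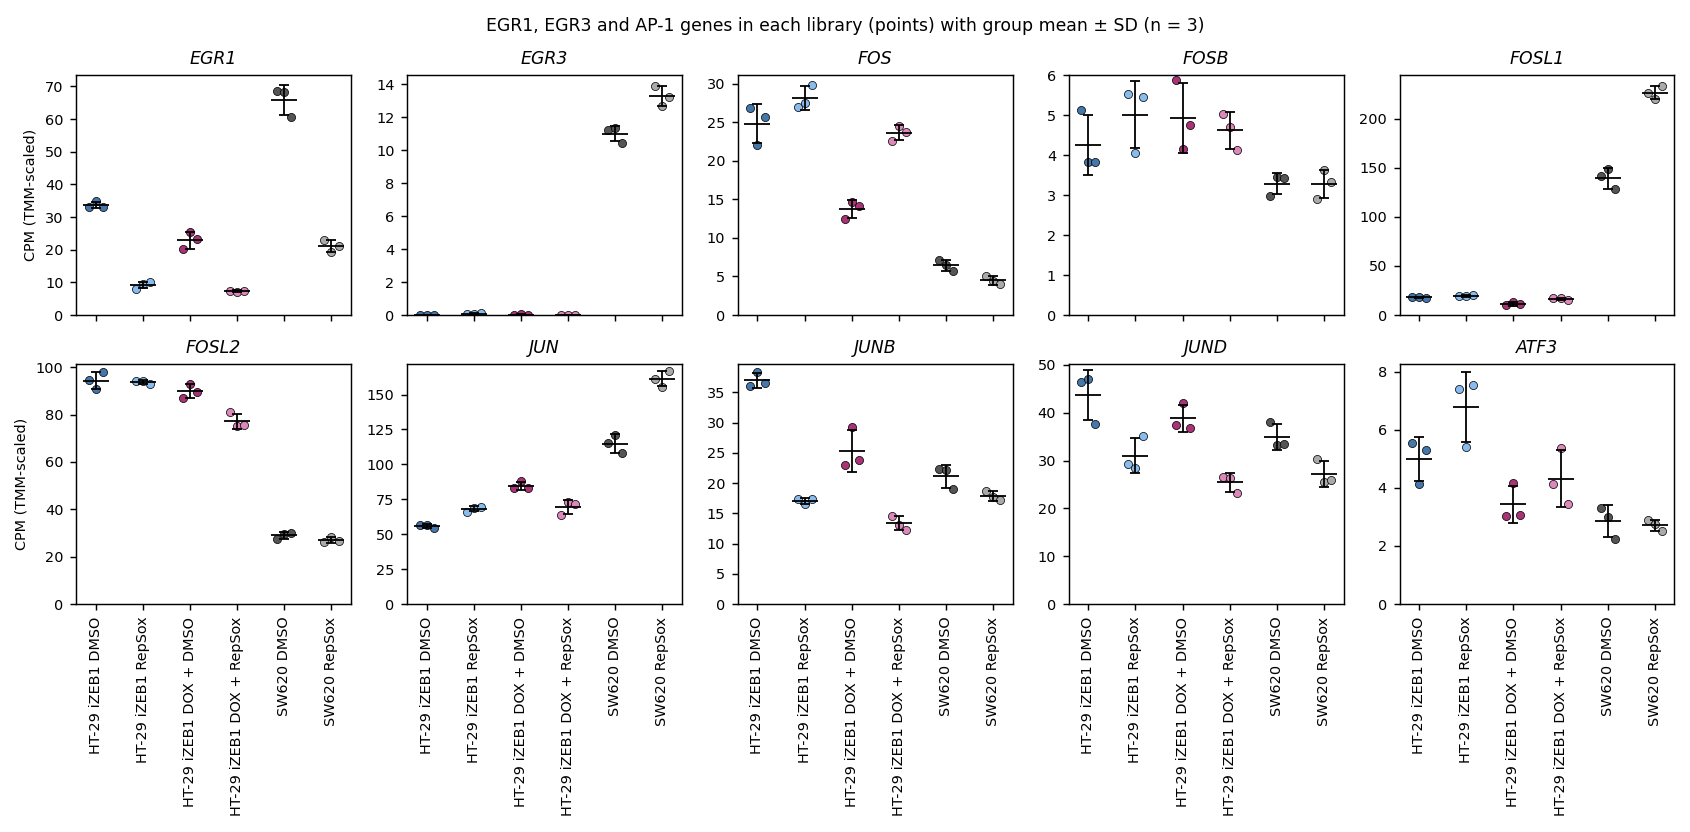
Level of each gene in CPM (linear axis from 0, scaled separately for each gene) in the 18 libraries, as points, with the mean and SD of each group of 3. EGR1 is lower in every RepSox library than in the DMSO libraries beside it, and EGR3 is near 0 in all 12 HT-29 iZEB1 libraries.

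The first question was how these genes changed with RepSox. It was the only inhibitor used, so that block of the TGF-β receptor and any other action of RepSox cannot be told apart. Tests are edgeR's quasi-likelihood test with Benjamini-Hochberg adjustment over all genes of the fit, and a gene was called at an adjusted p below 0.05. RepSox changed 4 of 9 tested members in HT-29 iZEB1 without DOX (1 higher, 3 lower), against 25.3% of all genes tested (12.5% higher, 12.8% lower). It changed 7 of 9 with DOX (2 higher, 5 lower), against 52.2% of all genes (26.8% higher, 25.5% lower). In SW620 it changed 7 of 10 (3 higher, 4 lower), against 19.5% (10.2% higher, 9.24% lower). The median log2 change of the members was 0.12, -0.23 and -0.09 in that order, and that of all genes was -0.01 each time. With libraries scaled by their totals alone, the share of higher genes among those called in SW620 went from 52.5% to 39.5%, with no change of direction in any called member.

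EGR1 fell 3.70-fold without DOX (log2 -1.89 ± 0.10, SE, adjusted p = 5.01e-10 by edgeR), 3.16-fold with DOX (log2 -1.66 ± 0.10, adjusted p = 1.22e-10) and 3.12-fold in SW620 (log2 -1.64 ± 0.07, adjusted p = 1.29e-14). The difference between the falls with and without DOX was 0.23 ± 0.14 on the log2 scale (adjusted p = 0.254 by edgeR), so that the test did not separate them. The fall in SW620 differed from that in HT-29 iZEB1 without DOX by 0.24 ± 0.13 (adjusted p = 0.262 by edgeR). JUNB fell 2.18-fold without DOX (adjusted p = 8.14e-08), 1.92-fold with DOX (adjusted p = 1.24e-07) and 1.18-fold in SW620 (adjusted p = 0.0254), all by edgeR. The call in SW620 was lost without either of 2 DMSO replicates (1 and 2, adjusted p = 0.109 and 0.123) or 2 RepSox replicates (2 and 3, adjusted p = 0.0799 and 0.111). HOOK2, which overlaps JUNB, fell by 0.41 ± 0.08 without DOX, rose by 0.96 ± 0.08 with DOX, opposite to JUNB, and was at 0.08 ± 0.08 in SW620 on the log2 scale (adjusted p = 0.576 by edgeR). JUND fell 1.42-fold, 1.54-fold and 1.28-fold in the same settings (adjusted p = 0.000921, 3.45e-05 and 0.000738 by edgeR).

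JUN moved with the setting. RepSox raised it 1.22-fold without DOX (log2 0.28 ± 0.06, adjusted p = 0.00313 by edgeR) and 1.40-fold in SW620 (log2 0.49 ± 0.05, adjusted p = 5.13e-08), and lowered it 1.23-fold with DOX (log2 -0.29 ± 0.06, adjusted p = 0.000691). FOS rose 1.71-fold with DOX (adjusted p = 8.17e-07), fell 1.44-fold in SW620 (adjusted p = 0.00347) and was at 0.17 ± 0.09 on the log2 scale without DOX (adjusted p = 0.165, all by edgeR). FOSL1 rose 1.43-fold with DOX (adjusted p = 0.000297) and 1.63-fold in SW620 (adjusted p = 1.45e-10), and was at 0.12 ± 0.10 without DOX (adjusted p = 0.431, all by edgeR). EGR3 rose 1.21-fold in SW620, while EGR1 fell (adjusted p = 0.0222 by edgeR), a call lost without RepSox replicate 1 (adjusted p = 0.106) or 3 (adjusted p = 0.0531).

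Smaller or uncalled changes completed the set. FOSL2 fell 1.17-fold with DOX (adjusted p = 0.0027 by edgeR) and was at -0.02 ± 0.06 without DOX and -0.10 ± 0.07 in SW620 on the log2 scale, neither called. FOSB was not called in any setting, at 0.23, -0.10 and 0.00 on the log2 scale. ATF3 was at 0.44 ± 0.18 without DOX (adjusted p = 0.081), 0.32 ± 0.19 with DOX (adjusted p = 0.161) and -0.07 ± 0.17 in SW620 (adjusted p = 0.826, all by edgeR). Its change without DOX was called with no filter on low counts (adjusted p = 0.0203), in a fit of only those groups (adjusted p = 0.0212) or without RepSox replicate 2 (adjusted p = 0.0338). Its change with DOX was called without DMSO replicate 2 of the DOX cells (adjusted p = 0.0447).

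**Figure D2:**
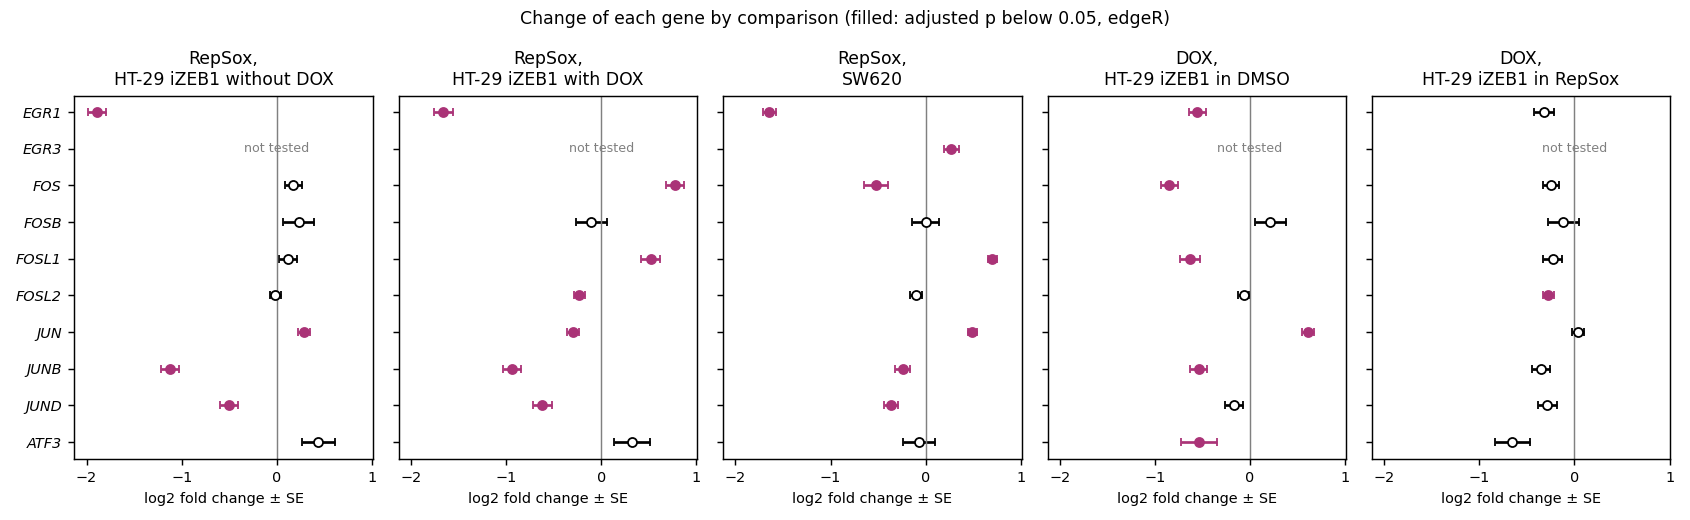
Log2 fold change ± SE of each gene (horizontal axis) in the 3 RepSox comparisons and the 2 DOX comparisons, with filled points where the adjusted p was below 0.05. EGR1, JUNB and JUND lie left of 0 in all 3 RepSox panels, while JUN changes side with DOX.

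The second question was what DOX did in HT-29 iZEB1, where DOX itself and ZEB1 cannot be told apart. In DMSO, DOX changed 6 of 9 tested members (1 higher, 5 lower), against 40.4% of all genes (19.2% higher, 21.1% lower). Among all genes called, 47.6% were higher, and 59.5% with libraries scaled by totals alone. The median log2 change was -0.54 over the members and 0.00 over all genes. JUN rose 1.53-fold (log2 0.61 ± 0.06, adjusted p = 3.64e-07 by edgeR) and FOS fell 1.80-fold (log2 -0.85 ± 0.09, adjusted p = 4.18e-07). FOSL1 fell 1.55-fold (adjusted p = 6.12e-05), EGR1 1.47-fold (adjusted p = 6.63e-05) and JUNB 1.46-fold (adjusted p = 8.22e-05, all by edgeR). HOOK2 fell too, by 1.25 on the log2 scale, in the same direction as JUNB. ATF3 fell 1.45-fold (adjusted p = 0.0271 by edgeR), a call lost with scaling by totals alone (adjusted p = 0.0529) and without replicate 1 or 3 of either group (adjusted p from 0.0791 to 0.109). JUND was at -0.17 ± 0.10, FOSL2 at -0.07 ± 0.06 and FOSB at 0.21 ± 0.16 on the log2 scale, not called, and JUND was called without DMSO replicate 3 (adjusted p = 0.039).

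In cells with RepSox, where ZEB1 reached at most 17.4 CPM, DOX changed 1 of 9 tested members, against 0.477% of all genes (0.0942% higher, 0.383% lower). That gene was FOSL2, 1.21-fold lower (log2 -0.28 ± 0.06, adjusted p = 0.0382 by edgeR), and the call was lost in 7 alternatives (adjusted p from 0.0576 to 0.262), among them leaving out any replicate of either group but replicate 1 of DOX and RepSox. JUNB was at -0.35 on the log2 scale (adjusted p = 0.126), EGR1 at -0.32 (adjusted p = 0.197) and ATF3 at -0.65 (adjusted p = 0.128, all by edgeR). At an unadjusted p below 0.05, 7 of the 9 passed, but the share of all genes at that p was not counted. DESeq2 called 3 of the 9, and 294 of all genes. Beside FOSL2 these were JUNB (adjusted p = 0.033) and ATF3 (adjusted p = 0.0304, both by DESeq2). With no filter on low counts JUNB (adjusted p = 0.0183), ATF3 (adjusted p = 0.00143) and JUND (adjusted p = 0.0489) were called by edgeR, and JUNB also without replicate 1 of DOX and RepSox (adjusted p = 0.0153). Of all genes called by edgeR 19.8% were higher, and 31.3% of those called by DESeq2.

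The interaction, the RepSox change with DOX minus that without DOX, was called for 3 of 9 members (2 higher, 1 lower), against 22.6% of all genes (13% higher, 9.61% lower). The share of higher genes among those called was 57.4%, and 47% with scaling by totals alone. FOS had a difference of 0.60 ± 0.13 on the log2 scale (adjusted p = 0.00163 by edgeR) and JUN of -0.58 ± 0.09 (adjusted p = 0.000113). FOSL1 had a difference of 0.40 ± 0.14 (adjusted p = 0.0497), and it was not called in 12 alternatives (adjusted p from 0.0518 to 0.128), of which 10 left out a replicate. The call held only without replicate 2 of DOX and DMSO and replicate 3 of DOX and RepSox among these. FOSL2 was at -0.21 (adjusted p = 0.073) and was called by DESeq2 (adjusted p = 0.0423), with scaling by totals alone (adjusted p = 0.0226) and without replicate 1 of DOX and RepSox (adjusted p = 0.0327). The other 5 tested members were not called, at -0.33 to 0.23.

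The lines were then compared in DMSO. All 10 members were called (4 higher and 6 lower in SW620), against 76.6% of all genes (40.1% higher, 36.5% lower). The median log2 difference was -0.35 over the members and 0.06 over all genes, and that of all genes became 0.18 with scaling by totals alone. FOSL1 was 7.76-fold higher in SW620 (log2 2.96 ± 0.08, adjusted p = 1.75e-20 by edgeR), JUN 2.06-fold higher (adjusted p = 4.01e-14) and EGR1 1.95-fold higher (adjusted p = 1.28e-10). EGR3 was the fourth (adjusted p = 9.39e-18 by edgeR), with the lower bound given above. FOS was 3.85-fold lower (log2 -1.94 ± 0.10, adjusted p = 6.29e-15 by edgeR) and FOSL2 3.25-fold lower (log2 -1.70 ± 0.06, adjusted p = 8.73e-19). JUNB and ATF3 were each 1.75-fold lower (adjusted p = 8.4e-09 and 0.000369 by edgeR), JUND 1.25-fold (adjusted p = 0.00374) and FOSB 1.30-fold (adjusted p = 0.0398). The FOSB call was lost with scaling by totals alone (adjusted p = 0.169), without DMSO replicate 1 of HT-29 iZEB1 (adjusted p = 0.208) and without that of SW620 (adjusted p = 0.0978). The JUND call was lost with scaling by totals alone (adjusted p = 0.0567). ERCC1, which overlaps FOSB, and HOOK2, which overlaps JUNB, were also lower in SW620, by -0.46 and -1.19 on the log2 scale.

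The response to RepSox differed between SW620 and HT-29 iZEB1 without DOX for 4 of 10 members (2 higher, 2 lower in SW620), against 10.4% of all genes (5.39% higher, 4.99% lower). JUNB fell less in SW620, with a difference of 0.87 ± 0.13 on the log2 scale (adjusted p = 3.37e-05 by edgeR). FOSL1 had a difference of 0.58 ± 0.11 (adjusted p = 0.00125) and FOS of -0.71 ± 0.15 (adjusted p = 0.00225). EGR3 was called as well (adjusted p = 0.0383), but the HT-29 iZEB1 side rests on 8 counts against 0, and the call was lost in 11 alternatives (adjusted p from 0.0501 to 0.101). JUN had a difference of 0.20 (adjusted p = 0.143 by edgeR) and was called by DESeq2 (adjusted p = 0.0429). JUND, FOSB, FOSL2 and ATF3 were not called, at 0.14, -0.24, -0.09 and -0.52.

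Per kb of exon, the make-up of the FOS family differed between the lines. In HT-29 iZEB1 with DMSO, FOSL2 made up 42.4% ± 1.19 of the summed CPM per kb of FOS, FOSB, FOSL1 and FOSL2, FOSL1 30.6% ± 1.93 and FOS 24.6% ± 1.69 (SD, n = 3). In SW620 with DMSO, FOSL1 made up 91.7% ± 0.514 and FOSL2 5.06% ± 0.532. With RepSox in SW620 the FOSL1 share was 95.4% ± 0.291, and the family sum was 126 ± 3.45 CPM per kb against 80.4 ± 5.66 with DMSO. The family sum of HT-29 iZEB1 was 31.1 ± 1.06 CPM per kb with DMSO and 23.8 ± 1.59 with DOX and DMSO, where FOSL2 held 52.8% ± 1.80 of it. With DOX and RepSox the sum was 27.7 ± 0.794 CPM per kb, and the shares of FOSL2, FOSL1 and FOS were 38.9%, 31.8% and 26.3%. Libraries of the DOX and DMSO group did not overlap with those of DMSO alone in the family sum.

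The JUN family was more even. In HT-29 iZEB1 with DMSO, JUND held 39.4% ± 2.56, JUNB 34.2% ± 1.73 and JUN 26.5% ± 0.961 of the summed CPM per kb. JUN held 42.6% ± 1.82 with RepSox, 40.8% ± 1.49 with DOX and 48.4% ± 3.34 with both, and was the leading member in these 3 groups. The JUNB share was 20.7%, 23.7% and 18% in the same groups. The family sum was 59.6 ± 3.53 CPM per kb with DMSO and 58.7 ± 4.23 with DOX, which overlapped, and 45.3 ± 2.40 with RepSox and 40.6 ± 1.42 with both, below every library without RepSox. In SW620 JUN held 51.7% ± 1.67 with DMSO and 65.1% ± 1.84 with RepSox, and JUND 29.9% and 20.9%. The RepSox group of SW620 summed to 69.9 ± 2.40 CPM per kb against 62.8 ± 3.45 with DMSO. JUN thus took a larger share with RepSox in all 3 settings, and in the DOX cells its own level was lower all the same.

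**Figure D3:**
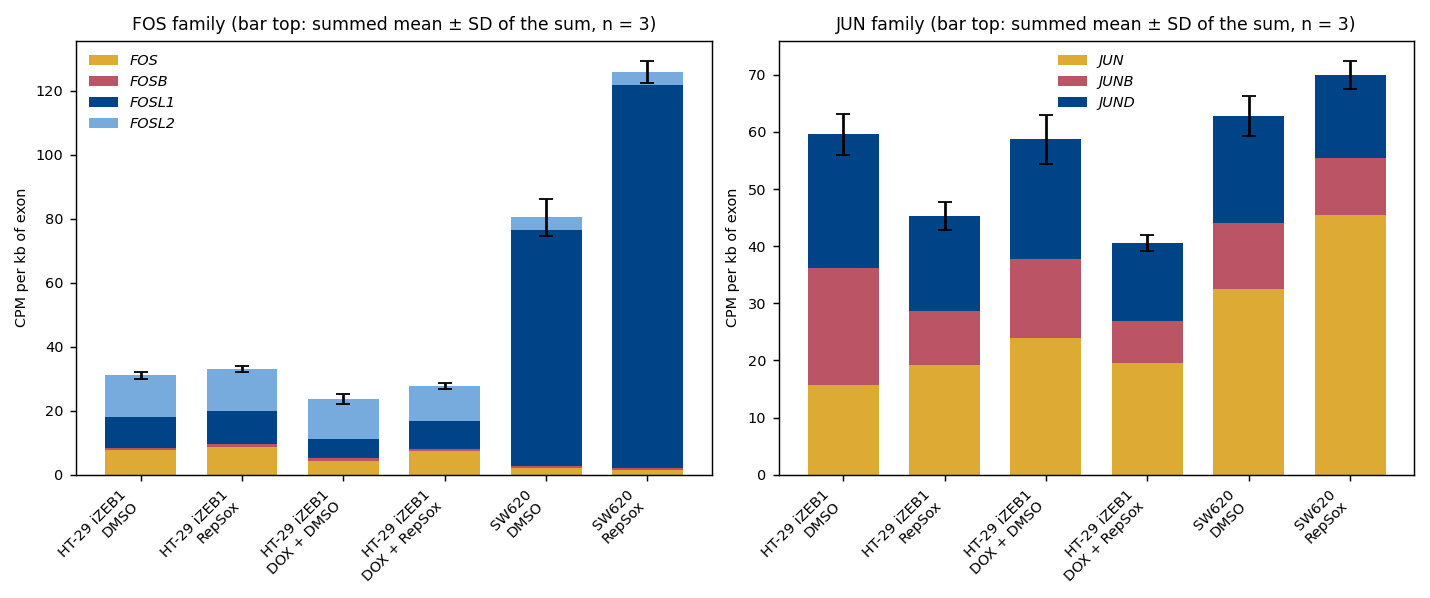
Stacked mean CPM per kb of exon (linear axis from 0) of the FOS family genes (left) and the JUN family genes (right) in the 6 groups, with the SD of the family sum over 3 libraries. FOSL1 fills most of the SW620 bars on the left, and JUNB and JUND shrink with RepSox in the HT-29 iZEB1 bars on the right.

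Genes around the members were followed in lists written by hand with earlier results of these data known, so that their counts are descriptions. NAB2, a co-repressor that EGR1 itself induces, was at 21.8, 22.2 and 21.4 CPM in HT-29 iZEB1 with DMSO and at 13.3, 12 and 11.6 CPM with RepSox. It was at 25.9, 28.2 and 21.7 CPM with DOX and at 14.9, 13.9 and 12.4 CPM with both, and in SW620 at 38.1, 35.9 and 36.4 CPM with DMSO and at 22.7, 22.2 and 23.5 CPM with RepSox. NAB2, whose end overlaps that of STAT6 on the other strand, thus fell with EGR1 in each setting, 1.78-fold (adjusted p = 7.63e-06), 1.86-fold (adjusted p = 4.15e-07) and 1.61-fold (adjusted p = 8.12e-09, all by edgeR). With DOX in DMSO, where EGR1 fell, NAB2 was at 0.22 ± 0.10 on the log2 scale (adjusted p = 0.0785 by edgeR). Of the other genes of its list of 4 (EGR2, EGR4 and NAB1), EGR2 and EGR4 stayed at or below 2.45 CPM. EGR4 rose 1.79-fold with RepSox in SW620, like EGR3 (adjusted p = 0.00799 by edgeR).

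Of 11 known EGR1 targets, 3 fell and 2 rose with RepSox without DOX, 8 fell and 2 rose with DOX, and 2 fell and 5 rose in SW620. NAB2, described above, is also in this list and is among those that fell in each setting. Of all genes, 12.8% fell and 12.5% rose, 25.5% fell and 26.8% rose, and 9.24% fell and 10.2% rose in these settings, so that the 2 that rose in each HT-29 iZEB1 setting are near the shares of all genes. Their median log2 change was -0.04, -0.65 and 0.12. TGFB1, the ligand gene, fell 1.24-fold without DOX and 1.83-fold with DOX, whereas VEGFA, an angiogenic factor, rose 1.28-fold and 2.25-fold. PDGFB, a growth factor gene, fell 1.57-fold in HT-29 iZEB1 without DOX and rose 1.73-fold in SW620, a difference of 1.43 ± 0.13 on the log2 scale (adjusted p = 2.26e-08 by edgeR). With DOX in DMSO 5 of the 11 rose, among them THBS1 (1.92-fold), which encodes a matrix protein that activates latent TGF-β, and 2 fell. Of all genes 19.2% rose and 21.1% fell in that comparison, so that the 2 that fell are near that share.

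Of 20 known AP-1 targets 15 were tested in HT-29 iZEB1. DOX in DMSO lowered 8 and raised 2 of them, and RepSox in the DOX cells raised 8 and lowered 3, with medians of -0.30 and 0.40 (log2), against 21.1% of all genes lower and 19.2% higher with DOX and 26.8% higher and 25.5% lower with RepSox. The 2 comparisons share the DOX and DMSO libraries. AREG, an EGF receptor ligand, was at 64.6, 64.9 and 65.0 CPM with DMSO, 88.1, 86.2 and 86.5 CPM with RepSox, 32.9, 31.4 and 35 CPM with DOX, and 84.9, 105 and 104 CPM with both. AREG was thus low in the same group as FOS and FOSL1, and its interaction was 1.14 ± 0.10 on the log2 scale (adjusted p = 2.28e-07 by edgeR). PLAUR, the urokinase receptor gene, fell 2.04-fold with DOX in DMSO (adjusted p = 1.95e-07) and had an interaction of 0.79 ± 0.14 on the log2 scale (adjusted p = 0.000521, both by edgeR). RepSox without DOX raised 4 and lowered 2 of the 15, against 12.5% of all genes higher and 12.8% lower. The 2 that fell are near the share of all genes. In SW620 RepSox raised 9 of 14 tested and lowered 1, with a median of 0.38, against 10.2% of all genes higher and 9.24% lower. PLAU (urokinase) rose 1.91-fold there, PLAUR 1.73-fold, LIF 1.41-fold and CCND1 1.33-fold.

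Among 15 tested relatives of the members (ATF, CREB, BATF and MAF genes), RepSox lowered 5 without DOX and 10 with DOX, with medians of -0.17 and -0.29, against 12.8% and 25.5% of all genes lower. MAFF, a small MAF protein gene, fell 1.31-fold and 1.86-fold. DOX in DMSO raised 7 of the 15, among them ATF2 (1.43-fold), a partner of JUN, and lowered 1. Of all genes 19.2% were higher and 21.1% lower there. In SW620 RepSox raised 3 and lowered 3 of 17, against 10.2% and 9.24% of all genes. Of 28 other immediate-early genes, RepSox lowered 12 and raised 4 without DOX, lowered 17 and raised 3 with DOX, and raised 11 and lowered 4 in SW620. The shares of all genes were 12.8% lower and 12.5% higher, 25.5% and 26.8%, and 9.24% and 10.2%. The difference between the lines was called for 16 of the 28, 14 of them higher in SW620, against 10.4% of all genes (5.39% higher). MYC, a growth regulator, rose 1.92-fold without DOX and 3.02-fold with DOX, and ZFP36, an mRNA decay factor, fell 1.51-fold without DOX. RHOB, a small GTPase gene, rose 2.04-fold and CSRNP1 fell 1.90-fold in SW620. DOX in DMSO raised 8 and lowered 9 of the 28, against 19.2% of all genes higher and 21.1% lower. BTG2, an antiproliferative gene, was 2.97-fold higher and MYC 1.69-fold lower.

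In the cascades upstream, MAPK3, which encodes the kinase ERK1, was at 33.2, 32.1 and 29.4 CPM in HT-29 iZEB1 with DMSO and at 17.0, 15.9 and 15.9 CPM with RepSox. With DOX it was at 29, 37.3 and 31.4 CPM in DMSO and at 19.1, 16.9 and 15.9 CPM in RepSox, and in SW620 at 36.8, 35.7 and 29 CPM against 26.3, 25.1 and 25.4 CPM. MAPK3 thus fell in the 3 settings in which EGR1 fell with RepSox, 1.95-fold, 1.90-fold and 1.32-fold (adjusted p = 8.85e-07, 1.93e-07 and 0.000326 by edgeR). Its fall was smaller in SW620 than in HT-29 iZEB1 without DOX, by 0.55 ± 0.14 on the log2 scale (adjusted p = 0.00761 by edgeR). In all, 1 of 15 ERK cascade genes fell and 1 rose without DOX, 7 fell and 3 rose with DOX, and 2 fell and 2 rose in SW620. Called in all genes were 25.3%, 52.2% and 19.5%, so that the count without DOX is below the share of all genes and that in SW620 near it. Of the 6 SRF and cofactor genes, 2 were called without DOX and 2 in SW620, near the shares of all genes (25.3% and 19.5%). SRF rose 1.35-fold without DOX and 1.34-fold in SW620, and ELK3 was 1.29-fold lower and 1.32-fold higher. With DOX, 2 of the 6 fell with RepSox, ELK3 1.61-fold and MRTFA 1.24-fold, near the 25.5% of all genes that were lower. Of 15 JNK and p38 genes, 4 fell and 2 rose without DOX and 8 fell and 4 rose with DOX, and 4 of 14 rose in SW620, against 25.3%, 52.2% and 19.5% of all genes called. MAP2K6, a p38 kinase kinase, rose 4.27-fold and MAPK13, a p38 kinase, fell 3.15-fold with DOX in DMSO. DOX in RepSox changed 0.477% of all genes. It changed 2 of the 28 immediate-early genes (ZFP36 and KLF6, both lower) and 1 of the 15 JNK and p38 genes (MAPK13, lower). It changed 0 genes of the other 6 lists by edgeR, where 14 of 66 entries passed an unadjusted p below 0.05 and DESeq2 called 1. NAB2 is in more than 1 of these lists and is counted in each. How many of all genes passed that unadjusted p was not counted.

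**Figure D4:**
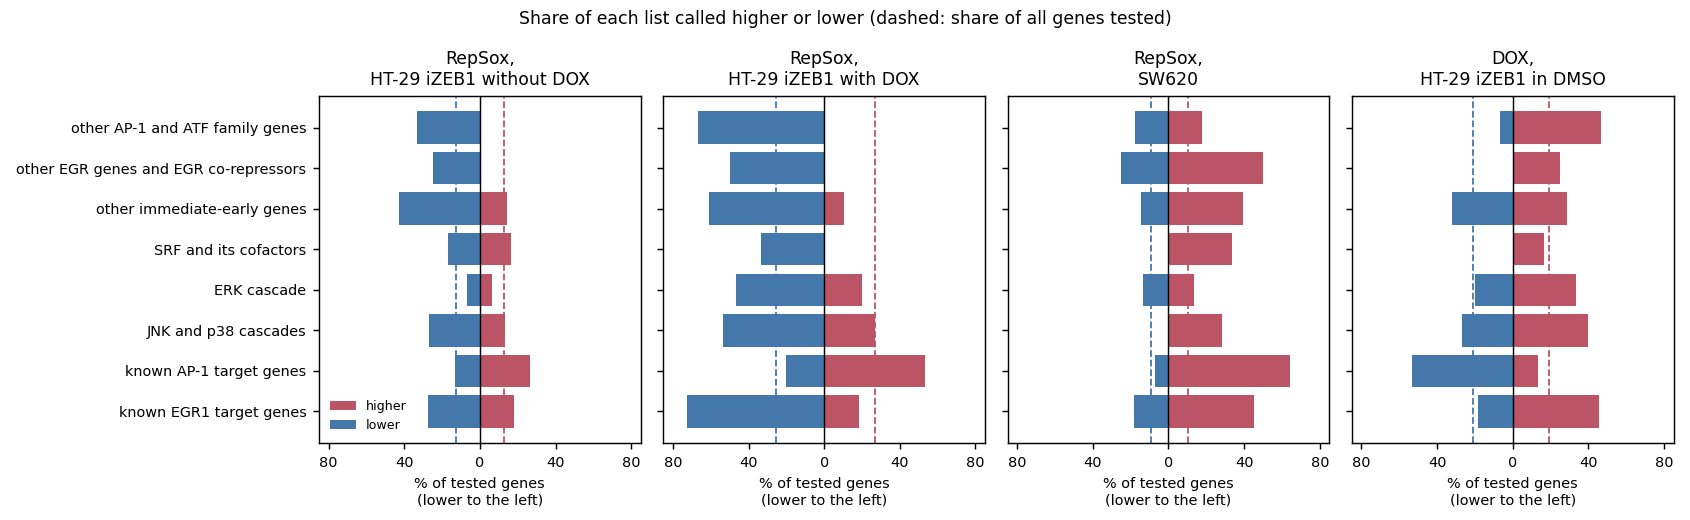
Share of the tested genes of each list that were called higher (red, to the right) or lower (blue, to the left) in 4 comparisons, in percent, with the share of all genes tested as dashed lines. Known AP-1 targets lie mostly to the left with DOX in DMSO and mostly to the right with RepSox in the DOX cells and in SW620.

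Over the 12 HT-29 iZEB1 libraries 6 of the 9 members tested there formed 2 sets by likeness, given as Pearson r of log2 CPM. EGR1, JUNB and JUND were one, with r = 0.97 for EGR1 and JUNB, 0.92 for EGR1 and JUND and 0.94 for JUNB and JUND. FOS, FOSL1 and ATF3 were the other, with r = 0.95 for FOS and FOSL1, 0.80 for FOS and ATF3 and 0.84 for FOSL1 and ATF3. Between EGR1 and FOS r was -0.38. FOSL2 lay nearer to the first set (r = 0.60 with EGR1, 0.70 with JUNB and 0.67 with JUND), and FOSB reached at most 0.27 with any member. JUN ran against the second set, with r = -0.71 with FOS and -0.68 with FOSL1, and less so with ATF3 (-0.44). Over all 18 libraries, r was 0.64 for EGR1 and JUNB, 0.60 for EGR1 and JUND and 0.90 for JUNB and JUND. The second set did not hold there, with r = -0.88 for FOS and FOSL1 and -0.61 for FOSL1 and ATF3. FOS and ATF3 stayed at 0.85. JUN was at -0.95 with FOS but at 0.88 with FOSL1. The 12 libraries form 4 groups, so that the values over them mostly describe the order of the groups. Reads of JUNB, FOSB and FOSL2 cannot be told apart from those of the genes they overlap.

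**Figure D5:**
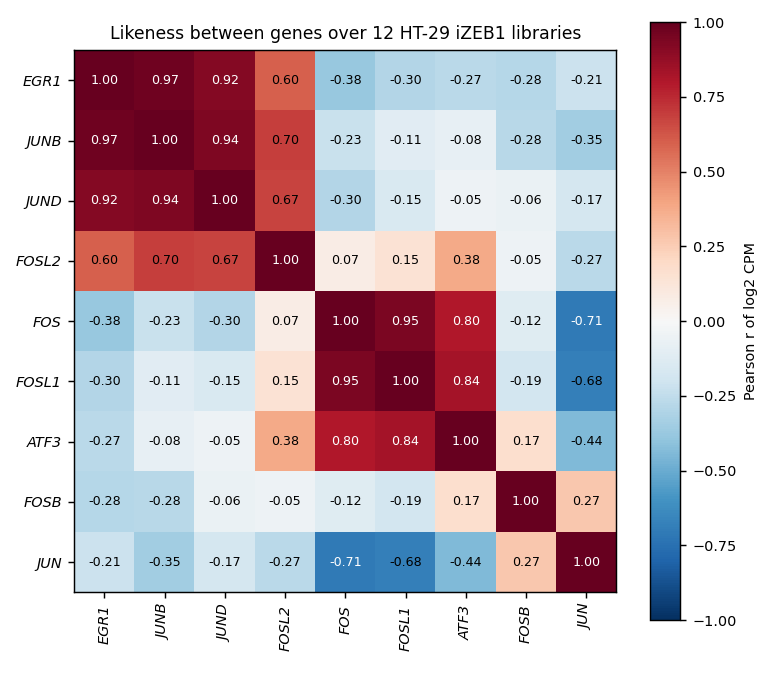
Pearson r of log2 CPM between the 9 members tested in HT-29 iZEB1, over its 12 libraries, from -1 (blue) to 1 (red). EGR1, JUNB and JUND form a block at 0.92 to 0.97, and FOS, FOSL1 and ATF3 one at 0.80 to 0.95.

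Among 10531 genes of at least 5 CPM over the 12 libraries, those most like EGR1 were TMEM139 (r = 0.99), CDC42SE1 and MMRN2 (0.98 each). Those most like FOS were ACAT2, CMTM4 and C1orf198 (0.98 each), most like FOSL1 PPME1, TRIM47 and SAPCD2 (0.98 each), and most like JUN RGS2, HEG1 and CLEC3A (0.97 each). Over all 18 libraries and 10957 genes, the nearest to EGR1 were DUSP3 (0.97), POLH (0.96) and CSRNP1 (0.95), an immediate-early gene itself. For FOS they were KRTCAP3, HID1 and RBBP8NL (0.99 each), for FOSL1 SLC25A4, PLPP3 and ANKH (0.995 each), and for JUN PCMTD2, CEP164 and CAVIN2 (0.98 each). Over 18 libraries these values follow the difference between the lines for FOS, FOSL1 and JUN, whereas EGR1 ran through both lines. ATF3 was below the minimum of 5 CPM.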

How the data were processed

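The authors deposited 1 table of whole-number read counts per gene symbol (60642 genes, 18 libraries). The submitters' processing notes name build GRCh38.p13, featureCounts 2.0.0, HISAT2 2.2.0, DESeq2 1.34.0 and FastQC 0.11.9, with no settings. Groups came from the labels.

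Counts were tested with edgeR 4.0.16 in R 4.3.3: TMM scaling, filterByExpr (minimum count 10), the quasi-likelihood fit and test, and adjustment over all genes. All 12 libraries of HT-29 iZEB1 shared a fit (16978 genes), the 6 SW620 libraries alone (17147), and all 18 for contrasts between lines (19107). Standard errors are on the log2 scale. The script was tested on simulated data. Alternatives were DESeq2 1.42.0, other scalings, no filter, a replicate block, fewer groups and leaving out each replicate. Library totals were 36.5 to 39.8 M counts, and p-values cover the spread between libraries only.

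Named were the 10 members, ZEB1, overlapping genes chosen after their position was seen (HOOK2 and ERCC1), at most 4 called genes with the lowest p per list and comparison, and the 3 most like genes of EGR1, FOS, FOSL1 and JUN. For that reason NAB2, MAPK3 and AREG are followed across groups. The members and lists were chosen with earlier results of these data known.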

Additional observations from a re-analysis of the deposited data

Results flagged for a closer look

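In 7 cases a member's response to RepSox differed between settings by a test of the difference itself (edgeR, adjusted p below 0.05). With and without DOX these were 3 of 9 members, against 22.6% of all genes. Between the lines they were 4 of 10, against 10.4%. The FOSL1 call with and without DOX was lost in 12 alternatives and the EGR3 call in 11. In the DOX cells, RepSox and DMSO libraries also differ in ZEB1, as given above. The response with DOX minus that without DOX was 0.60 ± 0.13 for FOS, 0.40 ± 0.14 for FOSL1 and -0.58 ± 0.09 for JUN on the log2 scale. The response of SW620 minus that of HT-29 iZEB1 without DOX was -0.71 ± 0.15 for FOS, 0.58 ± 0.11 for FOSL1 and 0.87 ± 0.13 for JUNB. For EGR3 the fitted difference was -4.28, which depends on the prior count since its HT-29 iZEB1 libraries with DMSO were all at 0. Groups of 3 libraries were not screened for single outlying values.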

How the results depend on the processing

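Each member's log2 change was recomputed under the alternatives that could be fitted, 75 values for most settings and 46 in fits of only the groups compared. Of 985 values in all, 924 kept their side of the threshold, 46 lost a call, 15 gained one, and none reversed while called. Among the 924 are changes of direction that neither fit called. FOSB with RepSox in SW620 ran from -0.08 to 0.08 on the log2 scale with 1 replicate left out. DOX in RepSox depended most on the processing. There 1 member was called, against 3 with DESeq2, 0 with library totals alone, 4 with no filter on low counts, 0 in a fit of only the groups compared, and 0 to 2 with 1 replicate left out. Of all genes 81 were called, against 294 with DESeq2, 584 with no filter, and 27 to 1670 with 1 replicate left out. The highest was without replicate 1 of DOX and RepSox, and the cause was not tested. In the other 7 comparisons the counts of members and of all genes stayed within 1.5 times. Leaving out 1 replicate leaves fewer samples and accounted for 36 of the lost calls.

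Replicate numbers are shared between groups, but same-numbered libraries did not deviate together: r ran from -0.14 to 0.10 over 18 pairs in HT-29 iZEB1 and from -0.06 to 0.01 over 3 pairs in SW620. A fit with a replicate block kept 73 of 75 member results and called 109 genes for DOX in RepSox. It lost JUND between the lines (adjusted p = 0.171) and the difference in RepSox response of EGR3 (adjusted p = 0.0606).

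Precision rests on 3 libraries a group. EGR3 in HT-29 iZEB1 lies at or near the limit a count of 0 allows.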
